A study of Mus musculus with 10 samples.

Results

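The KLF (Krüppel-like) and SP (specificity protein) factors are one family of zinc finger proteins that bind GC-rich DNA, and 10 of them, *Klf2*, *Klf4*, *Klf6*, *Klf7*, *Klf9*, *Klf10*, *Klf13*, *Sp1*, *Sp3* and *Sp4*, were followed here. They were chosen by symbol from the 53974 genes of the expression table, with earlier results of these data known. All 10 were measured and passed the filter on low values. Their chromatin was read from the 16600 regions of the accessibility table, of which 11 lay within 1000 bp of an end of one of these genes. *Sp3* had 2 such regions and every other gene had 1.

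The cells came from retinas of C57BL/6 mice, 8 to 10 weeks old, whose *Arid1a* gene, which encodes a subunit of the SWI/SNF chromatin remodelling complex, carried loxP sites on both copies (genotype Arid1a fl/fl). An AAV2 virus was injected into the eye, with GFP for the WT group and with Cre for the cKO group (genotype Arid1a del/del), so that every group had received a virus. The optic nerve was crushed (ONC) 2 weeks later in both groups, and living cells that bound an antibody to Thy1.2 were sorted 3 days after ONC, with no uninjured group. Each label, WT or cKO, had 3 RNA-seq libraries and 2 libraries of ATAC-seq, in which a transposase cuts open chromatin. The virus reaches only part of the retina's cells, and no label says which libraries share a mouse. The paper's supplement gives several retinas for each sorted sample. The p-values thus measure the spread between libraries of pooled retinas, which may be technical.

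KLF and SP proteins share a C-terminal DNA-binding domain of zinc fingers and differ in the rest of the protein, which recruits either coactivators such as p300 and CBP or corepressors such as Sin3 and CtBP. They compete for the same GC boxes and CACCC boxes in promoters, so the factors present in a cell together set the output of a target. In retinal ganglion cells (RGCs), the neurons whose axons form the optic nerve, KLF4 and KLF9 are known to hold back axon growth and KLF6 and KLF7 to favour it. In lymphocytes KLF2 is known for keeping T cells quiescent and circulating.

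The promoters of 4 members are shown because they frame the results that follow. *Klf2* and *Klf6* had less RNA in every library labelled cKO, *Sp4* had more, and *Sp1* had the lowest accessibility difference of the 11 regions with RNA that overlapped between the groups. Each sequence is the 250 bases before the RefSeq start site, 5′ to 3′ on the strand of the gene, from GRCm38.p6. They are chr8:72318812-72319061 on the plus strand for *Klf2*, chr13:5861239-5861488 on the plus strand for *Klf6*, chr15:102406066-102406315 on the plus strand for *Sp1* and chr12:118301441-118301690 on the minus strand for *Sp4*. Capitals mark GC boxes (GGGCGG, or CCGCCC on the other strand) and CACCC boxes (CACCC, or GGGTG on the other strand).
Klf2: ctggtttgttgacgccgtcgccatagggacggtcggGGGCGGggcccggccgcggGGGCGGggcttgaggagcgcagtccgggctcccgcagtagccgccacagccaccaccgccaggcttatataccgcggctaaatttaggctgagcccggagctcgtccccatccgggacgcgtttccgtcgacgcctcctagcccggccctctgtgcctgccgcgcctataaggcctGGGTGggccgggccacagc
Klf6: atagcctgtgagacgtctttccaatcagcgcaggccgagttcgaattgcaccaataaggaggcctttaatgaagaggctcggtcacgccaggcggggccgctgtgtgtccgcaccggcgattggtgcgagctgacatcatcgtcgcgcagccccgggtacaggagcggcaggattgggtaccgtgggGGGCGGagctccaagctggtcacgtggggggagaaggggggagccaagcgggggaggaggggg
Sp1: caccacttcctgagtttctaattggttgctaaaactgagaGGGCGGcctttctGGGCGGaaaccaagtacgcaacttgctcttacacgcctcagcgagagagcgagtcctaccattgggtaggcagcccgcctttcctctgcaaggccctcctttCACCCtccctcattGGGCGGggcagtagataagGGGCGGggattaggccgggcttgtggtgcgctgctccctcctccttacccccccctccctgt
Sp4: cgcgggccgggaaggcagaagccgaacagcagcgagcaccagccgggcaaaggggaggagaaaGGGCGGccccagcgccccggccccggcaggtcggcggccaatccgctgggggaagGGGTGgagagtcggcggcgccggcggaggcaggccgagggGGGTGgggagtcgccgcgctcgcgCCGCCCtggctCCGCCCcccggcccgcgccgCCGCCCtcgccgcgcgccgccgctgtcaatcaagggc

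GC boxes, the letters these factors themselves bind, stood in the promoters of most members. They were searched on both strands in 32851 RefSeq promoters of the same length, of which 32.7% held a GC box and 52.0% a CACCC box (the letters can share an end base, as they did in *Klf13*). RefSeq gave 10 promoters for 9 of the members. *Sp4* and *Sp1* had 4 GC boxes each, as did *Klf4*, and the inner promoter of *Sp3* had 5. *Klf13* had 3, *Klf2* and the outer promoter of *Sp3* had 2, and *Klf6* and *Klf7* had 1. *Klf9* was the searched member without a GC box in this window, and *Klf10* had no promoter entry. CACCC boxes numbered 3 in *Klf7*, 2 in *Sp4* and 1 each in *Klf2*, *Klf9*, *Klf13* and *Sp1*. *Klf4*, *Klf6* and both promoters of *Sp3* had none. In *Klf2* the GC boxes began 214 and 195 bases before the start, and in *Klf6* the single GC box began 63 bases before it. In *Sp1* the GC boxes began 210, 197, 81 and 62 bases before the start, and in *Sp4* 187, 68, 57 and 37. GC content was 80.0% in *Sp4*, 71.2% in *Klf2*, 64.8% in *Klf6* and 59.6% in *Sp1*, against a median of 52.4% over all promoters.

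The RNA libraries had 3 features that touch every value below. *Arid1a* RNA was not lower in the libraries labelled cKO, with 18.8, 11.7 and 14.1 TPM (a level scaled to transcript length and library size) under WT and 18.8, 27.9 and 25.0 TPM under cKO (log2 fold change 0.66 ± 0.28 SE, limma adjusted p = 0.274). The virus recombines DNA in the eye's cells and the position of the deleted part within the transcript was not given, so RNA directions are given by label, and "under WT" and "under cKO" below stand for the libraries so labelled. Of the defining markers of RGCs, *Pou4f2* was listed at 0 in all libraries but 1, at 0.143 TPM there, and *Pou4f3* in all but 1, at 0.0532 TPM, while *Nefl* lay between 5.47 and 20.6 TPM, *Rbpms* between 1.82 and 6.43 TPM and *Thy1*, the sorted antigen, between 51.9 and 129 TPM. The summed level of 11 RGC markers was 83.3 to 121.5 TPM under WT and 137.1 to 171.2 TPM under cKO. *Thy1* was the largest part of it, and without *Thy1* the sums overlapped between the labels. Of the 8 RGC markers tested, 3 had a log2 fold change below 0 and 5 above, with a median of 0.06. Sums for several other cell types also stood apart between the labels. The summed level of 10 T cell markers was 1090 to 3110 TPM under WT and 268 to 636 TPM under cKO. That of 6 B cell markers was 81.2 to 236 TPM and 34.4 to 55.4 TPM, and that of 10 myeloid markers 2219 to 3401 TPM and 902 to 1261 TPM. That of 9 rod markers was 12447 to 17320 TPM and 25518 to 48207 TPM, and the cone and amacrine cell sums were likewise higher in every cKO library. Those of bipolar cells and Müller glia overlapped. In such sorted bulk samples, fewer cells of a type and less RNA per cell cannot be told apart.

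*Klf6*, a growth-promoting factor induced early after injury in many tissues, had the highest mean of the 10 members under both labels. Under WT its mean was 244 TPM, 96.6% of the tested genes had a lower mean, and it made up 33.3% to 65.9% of the summed TPM of the 10 members. *Klf9*, *Klf10*, *Klf2*, *Sp4*, *Sp3* and *Klf7* followed, with means of 47.8, 44.7, 36.7, 27.5, 20.6 and 15.6 TPM, and neighbours in that order had ranges that overlapped. *Klf13*, *Sp1* and *Klf4* lay lowest, at 6.38, 6.32 and 4.72 TPM, again without a gap between them. The range of *Klf6* stood clear of that of *Klf9*, and the range of *Klf7* clear of that of *Klf13*. Under cKO the order was *Klf6* at 83.3 TPM and *Sp4* at 46.8 TPM, each clear of the next gene, then *Klf9*, *Klf10*, *Sp3* and *Klf7*, then *Klf13* and *Sp1*, and last *Klf2* and *Klf4*. By mean, *Klf2* stood in the fourth place under WT and the ninth under cKO, and *Sp4* in the fifth and the second. The WT place of *Klf2* rested on replicate 2, at 83.2 TPM against 19.8 and 7.16 TPM. Without that library its WT mean was 13.5 TPM. The summed TPM of the members was 474, 463 and 425 in the libraries labelled WT and 279, 241 and 231 in those labelled cKO, and the groups did not overlap. *Klf6* made up 39.9%, 23.6% and 35.4% of the sums under cKO, and without *Klf6* the sums overlapped between the labels.

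**Figure D1:**
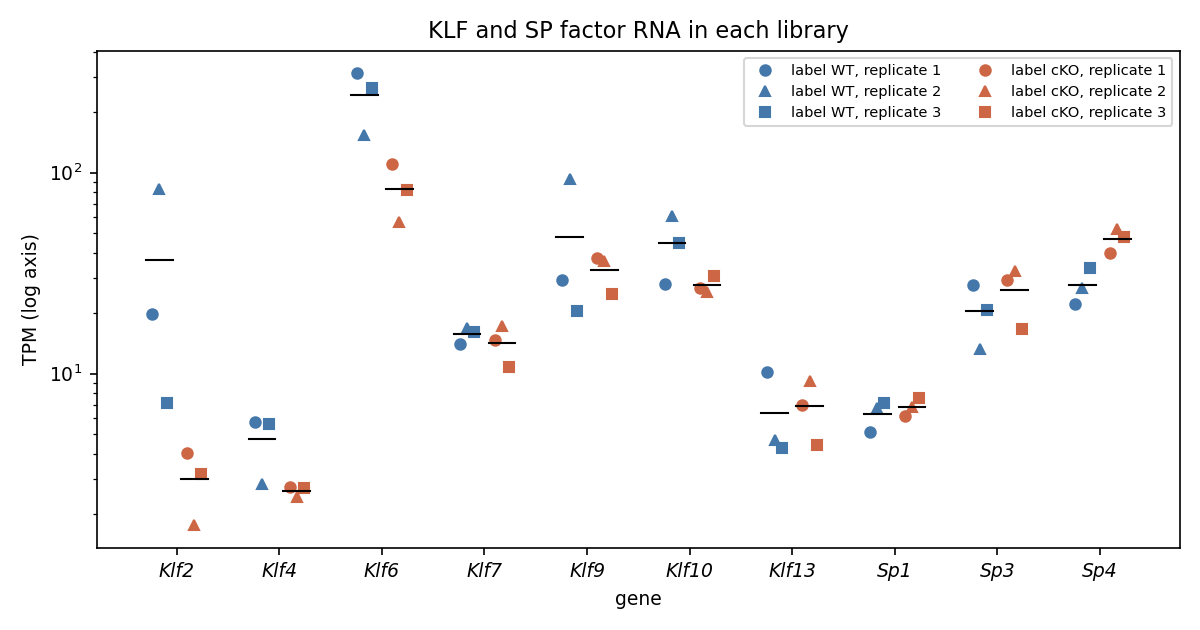
TPM (log axis) of the 10 members in each RNA-seq library. Blue symbols are the 3 libraries labelled WT, orange symbols the 3 labelled cKO, the symbol shape gives the replicate number and the black bars are group means. *Klf2*, *Klf4* and *Klf6* had every cKO value below every WT value, *Sp4* had every cKO value above, and the other 6 genes overlapped.

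No member passed the adjusted threshold between the labels (limma, Benjamini-Hochberg adjusted p under 0.05), where 0.00570% of the 17555 tested genes did. At an unadjusted p under 0.05, *Klf2* and *Klf6* were lower in the libraries labelled cKO (2 of 10, background 6.45%) and *Sp4* was higher (1 of 10, background 11.9%). The groups did not overlap for 3 lower members, *Klf2*, *Klf4* and *Klf6* (background 7.18%), and for 1 higher member, *Sp4* (background 18.7%). The median log2 fold change of the 10 was -0.20, against 0.16 over all genes tested. The latter was 0.01 once libraries were scaled by the median of ratios, so a member's fold change should be read against a shift of about that size. That scaling also turned the background around, with 9.54% of genes lower and 7.62% higher, and gave 3 lower members, *Klf10* being the third, and 1 higher.

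*Klf6* had the lowest p of the members. It lay at 312, 154 and 265 TPM under WT and at 111, 56.8 and 81.7 TPM under cKO. The lowest WT library was above the highest cKO library, and the means were 244 ± 80.9 (SD, n = 3) and 83.3 ± 27.3 TPM (SD, n = 3), a ratio of 2.93. The log2 fold change of TPM + 1 was -1.53 ± 0.36 (SE, 95% interval -2.37 to -0.69, limma adjusted p = 0.126). With 3 libraries a side the exact two-sided permutation test could not go below its value here, p = 0.1. Leaving out any 1 library kept the fold change between -1.83 and -1.28.

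*Klf2*, the flow- and quiescence-associated factor of endothelium and lymphocytes, had the widest spread of the 10. It was at 19.8, 83.2 and 7.16 TPM under WT and at 4.01, 1.76 and 3.17 TPM under cKO. All cKO libraries were below all WT libraries, but the WT libraries differed among themselves far more than the cKO libraries did. The group means were 36.7 ± 40.8 (SD, n = 3) and 2.98 ± 1.14 TPM (SD, n = 3), a ratio of 12.3, and without WT replicate 2, a choice made after the values were seen, the WT mean was 13.5 TPM and the ratio 4.52. The log2 fold change was -2.65 ± 0.80 (SE, 95% interval -4.53 to -0.77, limma adjusted p = 0.168), and -1.75 without that library (adjusted p = 0.143). WT replicate 2 had the highest *Klf2*, *Klf9* and *Klf10* of the 3 WT libraries and their lowest *Klf6*, *Klf4* and T cell marker sum.

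*Klf4*, a reprogramming factor and a brake on axon growth in RGCs, was low throughout. Its values were 5.73, 2.83 and 5.59 TPM under WT and 2.72, 2.44 and 2.69 TPM under cKO. The groups did not overlap, although the lowest WT library lay just above the highest cKO library. The log2 fold change was -0.62 ± 0.32 (SE, 95% interval -1.37 to 0.14, limma adjusted p = 0.348).

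*Sp4*, an SP factor rich in the brain and retina with a part in rod gene expression, was the member with more RNA under cKO. It stood at 22.2, 26.6 and 33.6 TPM under WT and at 39.8, 52.6 and 48.0 TPM under cKO. Every cKO library was above every WT library, with means of 27.5 ± 5.75 (SD, n = 3) and 46.8 ± 6.50 TPM (SD, n = 3). The log2 fold change was 0.76 ± 0.24 (SE, 95% interval 0.18 to 1.34, limma adjusted p = 0.184), and it was no longer at an unadjusted p under 0.05 without cKO replicate 2 (0.67, adjusted p = 0.535). The rod marker sum was also higher in every cKO library, and its part in the *Sp4* difference was not tested.

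*Klf7*, the other growth-promoting member, was nearly level. It lay at 14.0, 16.8 and 16.2 TPM under WT and at 14.7, 17.2 and 10.8 TPM under cKO, and the groups overlapped. Its 95% interval, from -0.77 to 0.48 on the log2 scale, leaves room for a moderate difference either way (limma adjusted p = 0.798).

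*Klf9*, a glucocorticoid- and thyroid hormone-induced brake on axon growth, was at 29.2, 93.5 and 20.6 TPM under WT and at 37.5, 36.2 and 24.8 TPM under cKO. One WT library was far above the rest and the other 5 lay together. The log2 fold change was -0.25 (95% interval -1.52 to 1.02, limma adjusted p = 0.835), and without WT replicate 2 it was 0.38. *Klf10*, an early gene of TGF-β signalling, was at 28.0, 61.1 and 44.9 TPM under WT and at 26.8, 25.4 and 30.6 TPM under cKO. The groups overlapped through WT replicate 1, which lay among the cKO libraries (log2 fold change -0.61, 95% interval -1.35 to 0.13, limma adjusted p = 0.342). *Klf13*, an activator of the chemokine RANTES in T cells, was at 10.2, 4.70 and 4.26 TPM under WT and at 6.98, 9.22 and 4.39 TPM under cKO, with groups that overlapped (log2 fold change 0.13, or -0.02 after scaling by the median of ratios, limma adjusted p = 0.891 and 0.985). The span of *Klf13* overlaps those of the lncRNA gene *Gm27252* (4154 bp, mean 3.47 TPM) and of *E030018B13Rik* (3683 bp, mean 0.135 TPM). Whether their transcripts share bases was not examined, so it is not known whether part of one level belongs to another.

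*Sp1* and *Sp3* are the SP factors present in nearly all cells and act on a great many GC-box promoters. *Sp1* had the narrowest spread of the members, at 5.12, 6.73 and 7.11 TPM under WT and 6.14, 6.79 and 7.60 TPM under cKO (log2 fold change 0.11, or -0.04 after that scaling, limma adjusted p = 0.859 and 0.942). The highest of its 6 values was 1.49 times the lowest, against 47.3 times for *Klf2*. *Sp3* was at 27.6, 13.3 and 20.8 TPM under WT and at 29.2, 32.4 and 16.7 TPM under cKO, again with overlap (log2 fold change 0.33, limma adjusted p = 0.661). The span of its antisense gene *Sp3os* overlaps its own by 1015 bp, and *Sp3os* lay between 8.94 and 21.7 TPM. Whether their transcripts share bases was not examined. Strand use in the counting was not stated either, so reads from the pair may not be told apart.

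**Figure D2:**
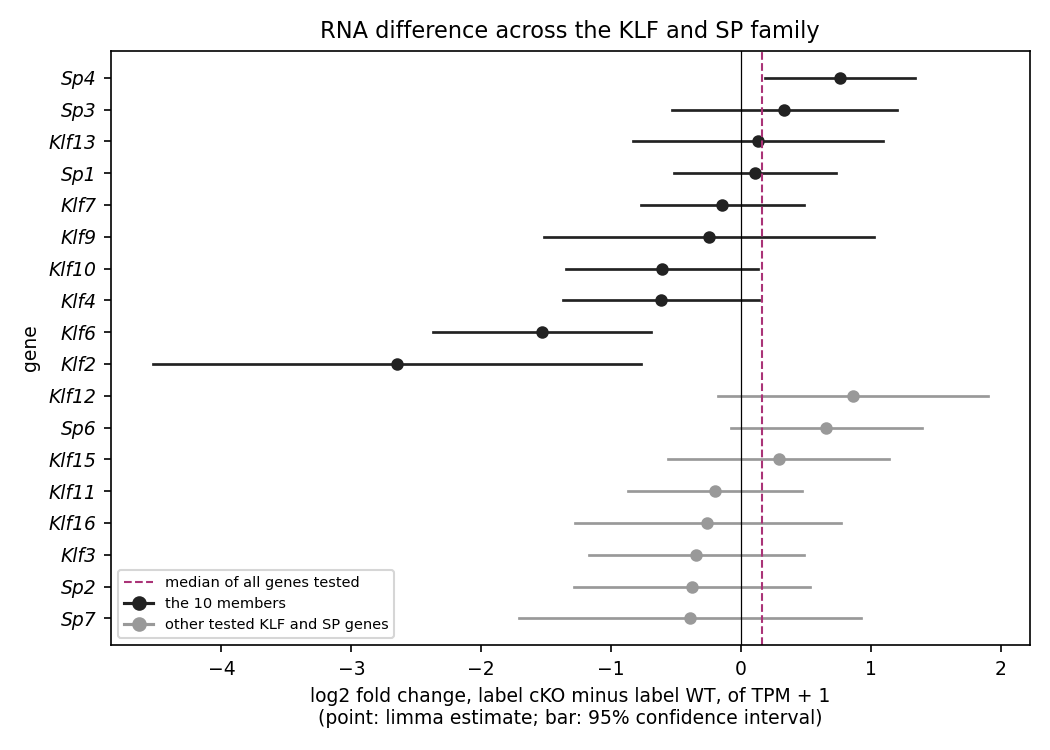
log2 fold change of TPM + 1, cKO minus WT by label (horizontal axis), for the 10 members (black) and the 8 other tested KLF and SP genes (grey). Points are limma estimates, bars 95% confidence intervals, and the dashed line is the median of all genes tested at 0.16. The intervals of *Klf2*, *Klf6* and *Sp4* lie wholly on one side of 0, and the points of *Klf13* and *Sp1* changed sign after scaling by the median of ratios (-0.02 and -0.04).

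The rest of the family was set beside the members. It is no neutral measure, because the members were chosen with earlier results of these data known. Of 16 further KLF and SP genes, 8 passed the filter, with none at an unadjusted p under 0.05. Their median log2 fold change was -0.23, close to the -0.20 of the members. *Klf12*, a repressor that works through CtBP, had the highest value, 0.86 ± 0.44 (SE, limma adjusted p = 0.340), with overlapping groups. *Sp6* was at 7.97, 16.6 and 14.4 TPM under WT and at 20.8, 19.3 and 20.3 TPM under cKO, without overlap (0.65 ± 0.31 SE, adjusted p = 0.312). *Sp7*, the osteoblast factor, had the lowest value, -0.39 (adjusted p = 0.736), and *Sp2*, *Klf3*, *Klf16* and *Klf11* lay between -0.38 and -0.20 with overlap. *Klf14* and *Sp8* were listed at 0 in all 6 libraries.

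The ERK5 kinase and MEF2 factors turn on *Klf2* and *Klf4*, and the CCM complex restrains that arm. Of 13 genes in it, 1 was lower and none higher at an unadjusted p under 0.05, with a median log2 fold change of 0.12. The background at that p, here and for the lists below, was 6.45% lower and 11.9% higher. The lower gene was *Ccm2*, a CCM scaffold protein, at 63.9, 78.3 and 40.1 TPM under WT and at 28.4, 31.7 and 23.2 TPM under cKO (-1.06 ± 0.30 SE, limma adjusted p = 0.153). *Foxo1*, which activates *Klf2* in T cells, had a log2 fold change of -0.50 (adjusted p = 0.481). *Map3k3*, the kinase at the head of the arm, and *Krit1*, a partner of CCM2, lay at the other end. Their values were 0.56 without overlap and 0.46 with overlap (adjusted p = 0.387 and 0.363).

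KLF2 is known to act on genes of lymphocyte homing and of the endothelium. Of 6 such genes 5 were tested, and none had an adjusted p under 0.05 (lowest 0.125 by limma). All 5 had a log2 fold change below 0, as had 6822 of the 17555 genes tested. At an unadjusted p under 0.05, 3 were lower (background 6.45%). *Itgb7*, a homing integrin, was at 98.1, 62.1 and 44.4 TPM under WT and at 26.3, 10.8 and 5.81 TPM under cKO (-2.34 ± 0.54 SE, limma adjusted p = 0.125). *Ccr7*, a chemokine receptor of lymph node entry, was at 37.6, 13.5 and 37.3 TPM and at 9.74, 5.79 and 6.60 TPM (-1.76 ± 0.44 SE, adjusted p = 0.138). Both of these were without overlap. *S1pr1*, the receptor for exit from lymph nodes, and *Nos3*, an endothelial target, overlapped, at -0.43 and -0.32. T cell markers were lower by label as well, with 9 of 10 at an unadjusted p under 0.05 (background 6.45%) and a median log2 fold change of -2.12. The part of T cells in the differences of these KLF2 targets was not tested. The summed level of 9 endothelial markers overlapped, at 323 to 690 TPM under WT and 303 to 700 TPM under cKO. Most of it came from *Kdr* (164 to 590 TPM), while *Cldn5* and *Pecam1* reached 9.61 and 6.87 TPM, and *Tek* and *Cdh5* 0.957 and 0.39 TPM.

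KLF7 is known to act on neurotrophin receptors, axon genes and cell cycle inhibitors. Among 6 such genes, 1 was lower and 1 higher at that unadjusted level. *Cdkn1a*, the p21 cell cycle inhibitor, was at 19.0, 16.8 and 11.7 TPM under WT and at 7.06, 2.65 and 4.73 TPM under cKO (-1.58 ± 0.37 SE, limma adjusted p = 0.127). *L1cam*, an axonal adhesion molecule, was at 9.13, 4.50 and 9.18 TPM and at 23.4, 18.5 and 10.4 TPM (1.09 ± 0.40 SE, adjusted p = 0.222). Both genes were without overlap, in opposite directions. *Ntrk2*, the receptor for BDNF, was at 0.68, also without overlap (adjusted p = 0.284). *Gap43*, a growth cone protein, was at -0.45 with overlap (adjusted p = 0.562).

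Among 11 genes of TGF-β signalling, the inducer of *Klf10*, 2 were lower at that level and none higher. The ligand *Tgfb1* was among them, at 4.40, 3.04 and 1.41 TPM under WT and at 0.97, 0.715 and 0.459 TPM under cKO (-1.14 ± 0.37 SE, limma adjusted p = 0.184). The receptor *Tgfbr2* was at -1.02 (adjusted p = 0.290) and the transducer *Smad2* at 0.16 (adjusted p = 0.726), both with overlap. The ligand *Tgfb3* was at 0.52 without overlap (adjusted p = 0.280).

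Of 7 genes of the glucocorticoid response, which induces *Klf9*, 1 was lower and 1 higher at that level. *Tsc22d3*, the anti-inflammatory protein GILZ, was at 127, 149 and 148 TPM under WT and at 117, 75.7 and 87.8 TPM under cKO (-0.61 ± 0.23 SE, limma adjusted p = 0.227). *Sgk1*, a kinase, was at 112, 83.8 and 146 TPM and at 146, 192 and 196 TPM (0.66 ± 0.27 SE, adjusted p = 0.251). *Dusp1*, a MAP kinase phosphatase, was at -0.55 and *Zbtb16*, a transcription factor, at 0.34 (adjusted p = 0.516 and 0.587). The list had no common direction, with 3 genes below 0 and 4 above.

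Among 12 cofactors, 1 was lower at an unadjusted p under 0.05 and the median log2 fold change was 0.21. It was the corepressor *Sin3b*, at 113, 138 and 126 TPM under WT and at 89.8, 80.5 and 82.8 TPM under cKO (-0.57 ± 0.19 SE, limma adjusted p = 0.192). The corepressor *Ctbp1* was at -1.08 with overlap (adjusted p = 0.350). The acetyltransferase *Crebbp* and the deacetylase *Hdac3* were at 0.64 and 0.44, both without overlap (adjusted p = 0.329 and 0.343). In all, the groups did not overlap for 1 lower and 4 higher cofactors (background 7.18% and 18.7%). Of 7 genes for turnover and modification of these proteins, 1 was higher at an unadjusted p under 0.05, the ubiquitin ligase subunit *Btrc*. It stood at 30.3, 38.6 and 31.8 TPM under WT and at 59.2, 63.7 and 54.9 TPM under cKO (0.81 ± 0.21 SE, adjusted p = 0.140). *Fbxw7*, also a ubiquitin ligase subunit, was at 0.59, *Vhl* at -0.55 and *Smurf1* at -0.19 (adjusted p = 0.398, 0.423 and 0.749). Over the 61 tested genes of all these pathway lists, 9 were lower and 3 higher at that level (background 6.45% and 11.9%), and none had an adjusted p under 0.05. The groups did not overlap for 9 lower and 11 higher genes (background 7.18% and 18.7%), and the median was -0.04.

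The genes whose levels ran most like those of *Klf6* over the 6 libraries were *Sp140*, *Manf*, *Gzmb*, *Napsa* and *Sp100*, with Pearson's r of 0.9987, 0.9985, 0.998, 0.9972 and 0.9968 on log2(TPM + 1). *Sp140* and *Sp100* encode nuclear body proteins and are no SP factors. The group difference is itself part of such an r, and 506 of the 12663 genes compared had an r over 0.9 with *Klf6*. *Gzmb*, a granzyme of cytotoxic lymphocytes, was at 84.4, 32.0 and 66.7 TPM under WT and at 17.1, 5.95 and 9.44 TPM under cKO. For *Klf2* the nearest were *Gemin8*, *Trim12a*, *Mppe1*, *Grk6* and *Golph3*, with r from 0.9766 to 0.9923, and 129 genes had an r over 0.9. *Trim12a* had its highest level in WT replicate 2, 40.3 TPM, as did *Klf2*.

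All 11 regions were less accessible in cKO. Values are the authors' group means of normalized reads, given without replicate values, so differences carry no error and no test. The log2 difference, cKO minus WT, ran from -4.83 at *Sp1* to -2.25 at *Klf2* with a median of -3.32, and all 11 were lower by at least 2 (4-fold), against 40.8% of all 16600 regions, 67.6% of the 8002 regions within 1000 bp of any gene end and 74.3% of the 7278 of these where both WT lists had a peak. The whole table was shifted, with a median difference of -1.57 and summed reads of 461251 in WT and 121688 in cKO. After the differences were centred on that median, 5 of the 11 were lower by at least 2, against 15.8% of gene end regions. The median was -2.62 over the gene end regions where both WT lists had a peak. Median levels there were 33.8 reads in WT and 5.94 in cKO, against 105 and 8.51 reads at the 11 regions. The part of the higher WT level in the differences of the 11 was not tested.

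*Sp1*, *Klf7* and *Sp4* had the largest differences. At *Sp1* (chr15:102405329-102406388) the group values were 247 reads in WT and 8.69 in cKO. At *Sp4* (chr12:118301080-118302599) they were 265 and 10.3 reads, and at *Klf7* (chr1:64121597-64122475) 119 and 4.44 reads, differences of -4.68 and -4.75. These 3 regions and that of *Klf6* (chr13:5860801-5861786, 105 and 5.43 reads, -4.28) were the 4 members with the lowest differences. Of the 7278 gene end regions where both WT lists had a peak, 1.65% had a lower difference than *Sp1* and 5.41% a lower one than *Klf6*. The WT level at *Sp4* was above that of 99.9% of those regions.

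The middle of the range held *Sp3*, *Klf13*, *Klf10* and *Klf4*. The outer region of *Sp3* (chr2:72979821-72980980) had 71.5 reads in WT and 7.16 in cKO (-3.32), and the inner one (chr2:72979029-72979637) had 31.1 and 2.39 (-3.70). *Klf10* (chr15:38298944-38301473) had 209 and 22.6 reads (-3.21), and *Klf13* (chr7:63938354-63939715) had 185 and 19.6 (-3.24). These 2 genes had the most reads left in cKO among the members, in regions of 2530 bp at *Klf10* and 1362 bp at *Klf13*. Reads were not scaled to the width of a region. *Klf4* (chr4:55532371-55533335) had 52.0 and 6.15 reads (-3.08).

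*Klf9* and *Klf2* had the smallest differences. At *Klf9* (chr19:23140725-23141748) the values were 74.5 and 10.7 reads (-2.80), and at *Klf2* (chr8:72318760-72319776) 40.5 and 8.51 reads (-2.25). The *Klf2* region was close to the typical gene end, since 64.9% of those with a peak in both WT libraries had a lower difference. A further region 4958 bp outside *Klf9* had 59.7 and 8.17 reads (-2.87), and one inside *Klf13* had 32.0 and 10.8 reads (-1.57).

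**Figure D3:**
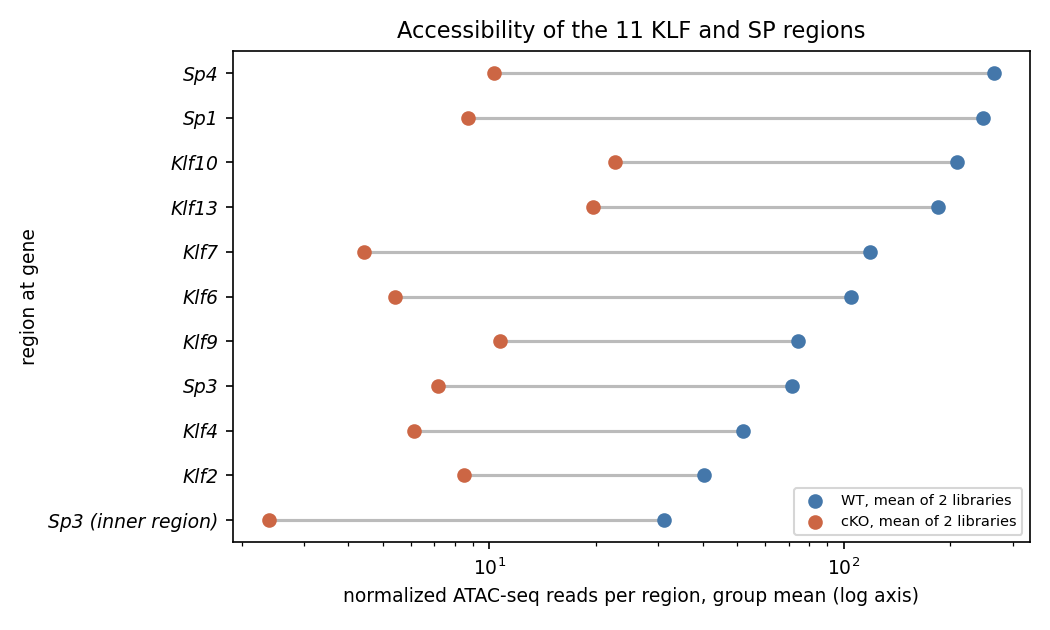
Normalized ATAC-seq reads (log axis) of the 11 regions, ordered by the WT value. Blue points are the authors' WT group means and orange points their cKO group means, each of 2 libraries and without a replicate error. Every cKO point lies left of its WT point, by the widest gap at *Sp1* (247 and 8.69 reads) and the narrowest at *Klf2* (40.5 and 8.51 reads).

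By presence in the peak lists of the single libraries, the members were close to other gene end regions with a peak in both WT lists. Of the 11 regions, 10 had a peak in both WT libraries and in neither cKO library, against 81.6% of gene end regions and 89.7% of those with a peak in both WT lists, as all 11 had. The exception was *Klf9*, where cKO replicate 1 had a peak 178 to 522 bp into the gene, while the WT peaks crossed the start of the gene, from -499 to 356 bp in replicate 1 and from -501 to 90 bp in replicate 2, where negative values lie outside the gene. The peak of cKO replicate 1 thus lay over the inner part of the WT replicate 1 peak and beside that of replicate 2. That library had 1 more peak, beyond the far end of *Sp1* (-1055 to -735 bp from it), and cKO replicate 2 had none within 1000 bp of a member's end. All 10 genes had a peak in each WT library. Over 15518 genes with a position, 65.1% and 58.2% had a peak at an end in the WT libraries and 13.6% and 13.9% in the cKO libraries. The lengths of the lists did not separate the groups, with 55902 and 68317 peaks in cKO and 76522 and 42265 in WT.

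**Figure D4:**
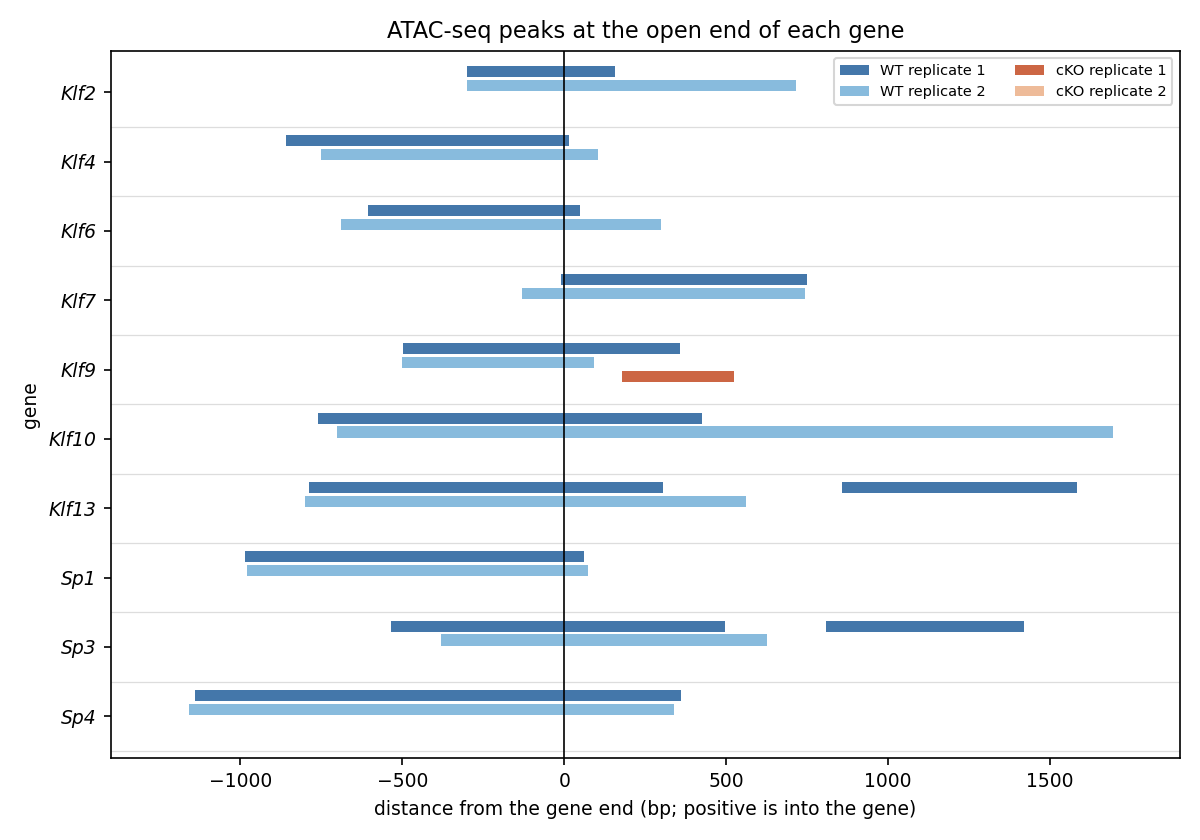
Positions of ATAC-seq peaks within 1000 bp of the gene end that carried the region, for each member, in bp from that end (positive values run into the gene). Bars are peaks of the 2 WT libraries (blue) and the 2 cKO libraries (orange). WT peaks stood at all 10 genes, and the single cKO peak shown is that of cKO replicate 1 at *Klf9*, 178 to 522 bp into the gene.

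The open regions lay over the promoters printed above. The regions of *Klf2*, *Klf6*, *Sp1* and *Sp4* held all 250 bases of the sequence shown, GC boxes included, and the same was true of *Klf4*, *Klf9*, *Klf13* and both *Sp3* promoters. At *Klf7* the region held 43 of the 250 bases and lay mostly further out.

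The other KLF and SP genes had 7 regions, with a median difference of -2.04 and 4 of 7 lower by at least 2. *Klf11* had the most reads, at 171 in WT and 22.6 in cKO (-2.92). *Klf15* was the exception among the KLF and SP genes, at 4.53 reads in WT and 10.8 in cKO (1.25). Both cKO lists and neither WT list held a peak there. That region lay outside the gene beyond its far end (-702 to -175 bp from it) and did not cover the start site. The RNA of *Klf15* overlapped between the labels (log2 fold change 0.29, limma adjusted p = 0.700).

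The order of the accessibility differences was not the order of the RNA differences. The 3 lowest accessibility differences were at *Sp1*, *Klf7* and *Sp4*, with RNA log2 fold changes of 0.11 (-0.04 after scaling), -0.15 and 0.76. The smallest accessibility difference was at *Klf2*, with the lowest RNA fold change, -2.65. *Klf6* was low in both, at -4.28 and -1.53. RNA and ATAC-seq came from separate libraries, so the 2 assays are set side by side without a test.

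**Figure D5:**
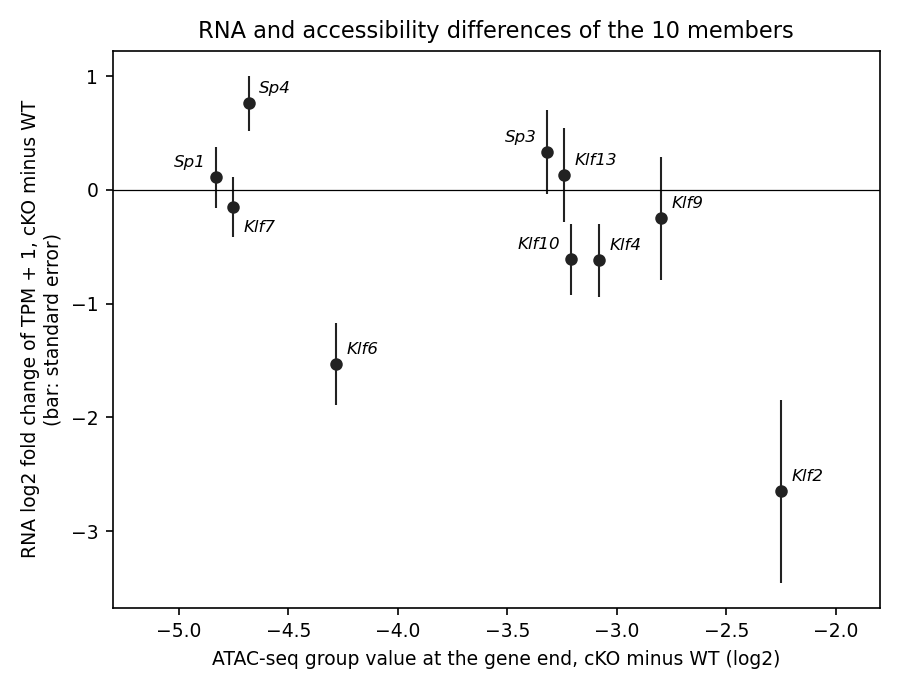
ATAC-seq difference at the gene end, cKO minus WT, in log2 group means (horizontal axis) against the RNA log2 fold change of TPM + 1 by label (vertical axis, bars are standard errors) for the 10 members, with the outer region for *Sp3*. All 10 points lie left of -2, while the RNA values run from -2.65 (*Klf2*) to 0.76 (*Sp4*).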

How the data were processed

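RNA-seq covered 3 WT and 3 cKO libraries and ATAC-seq 2 and 2, grouped by their labels. The authors trimmed reads with Trimmomatic, and the deposited TPM values came from Salmon 1.0.0 and tximport on a GENCODE annotation. TPM keeps no depth, so no counting error can be stated. For ATAC-seq the deposited values are 1 log2 number per region and group, the group's mean normalized reads, made by the authors with DiffBind after alignment with Bowtie2 2.3.5.1 to GRCm38. The processing notes also name MACS2 2.2.5, and each peak list was used for its positions alone. Depth per ATAC-seq library was not used here. The authors' own fold changes, p-values and FDRs, with the DESeq2 table they made from the same RNA libraries, were not used.

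Genes with at least 1 TPM in at least 3 libraries (17555 of 53974) were compared as log2(TPM + 1) with limma 3.58.1 in R 4.3.3 (empirical Bayes with a trend, Benjamini-Hochberg adjustment over all genes, threshold 0.05). Fold changes on this scale understate the change of low genes. A 95% interval is that of limma, and exact permutation tests were two-sided. A region was assigned to a gene when it lay within 1000 bp of either end of the gene in RefSeq on GRCm38.p6, and a peak was counted with an overlap of at least 1 bp. Positions are counted from 1. Scripts were tested on simulated data.

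The members and the gene lists were chosen with earlier results of these data known. Named are all members, the other family genes tested, the 2 lowest and 2 highest genes of each pathway list, and the 5 genes with the highest r to *Klf2* and *Klf6* among genes with a mean of at least 5 TPM. The values of some genes of these lists are not reported here. Deviations from the group means correlated weakly to moderately between libraries with the same replicate number (r = 0.334, 0.101 and 0.425 over genes). For cKO replicate 2 the best match was WT replicate 1. Pairing by number was fitted only as an alternative, a replicate block. With it the unadjusted limma p of *Klf6* was 0.00034, against 0.00347 without. The labels do not say what a number marks, and the p-values given are those without the block. Alternatives were another pseudocount, other filters, another scaling, a replicate block, no trend, leaving out each library, and other limits for regions.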

Additional observations from a re-analysis of the deposited data

How the results depend on the processing

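No member reached an adjusted p under 0.05 under any alternative (lowest 0.0596, for *Klf6*), and 111 of 119 member fold changes kept their sign. The signs that turned belonged to genes near 0. Scaling by the median of ratios gave *Klf13* -0.02 and *Sp1* -0.04. *Klf13* was also -0.01, -0.07 and -0.08 without WT replicate 2, WT replicate 3 and cKO replicate 2, *Sp1* -0.02 without WT replicate 1, *Klf7* 0.03 without cKO replicate 3 and *Klf9* 0.38 without WT replicate 2. Over single libraries left out, the ranges were -0.08 to 0.47 for *Klf13*, -0.02 to 0.19 for *Sp1*, -0.29 to 0.03 for *Klf7* and -0.68 to 0.38 for *Klf9*. The 1 gene called over all genes became 2 with the replicate block, 4 without the trend, and 1 to 2 when single libraries were left out. The pairing changed no call among the fold changes and counts of the 10 members, and the pathway and marker lists were not read under it. Scaling by the median of ratios also moved the share of lower genes among those at an unadjusted p under 0.05 from 35.1% to 55.6%. *Klf4* was not tested with a mean of at least 5 TPM. Of the 42 counts under alternatives, 36 stayed within 1.5 times the value given; of the rest, centring left 5 of 11 regions lower by at least 2 in place of 11. A limit of 3 left 9 regions. For ATAC-seq no paired analysis was possible, because its regions came as group means only. The cause of these shifts was not tested. Depth is not known for any library.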
